A study of Saccharomyces cerevisiae with 22 samples.

Results

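FRE1 to FRE7 are 7 genes of the FRE family of metal reductases in the budding yeast Saccharomyces cerevisiae. The members were selected on their gene symbols, and all 7 were among the 6373 yeast genes on the array and among the 6353 that were tested. The family itself was chosen by measured values. These were the log2 strain differences of FRE1 at 60 and 90 min and of FRE4 at 90 min. The change of the FRE1 strain difference from 0 to 90 min was known as well, so the FRE1 arrays at 0 min also entered the choice. Strain differences at these times are therefore given as a description. Changes and steps within a strain that use the same arrays are not independent of the choice. Their p, ranks and counts for FRE1 and FRE4 are descriptions too. The arrays compared newly made RNA from 2 anchor-away strains, in which rapamycin ties an FRB-tagged protein to an FKBP12-tagged ribosomal protein and so carries it out of the nucleus. The control strain, WT-aa, is a BY4742 strain of mating type alpha, marked his3-1, leu2, lys2 and ura3 and restored to MET15, in which FPR1 is deleted, TOR1 carries the tor1-1 allele and RPL13A is fused as RPL13A-FKBP12-NAT. The other strain, Hsf1-aa, has that background and Hsf1-FRB-yEGFP, a tagged form of the heat shock transcription factor Hsf1. Both strains were grown in synthetic complete medium with glucose, both received rapamycin, and both were given 5 mM 4-thiouracil (4tU) shortly before harvest to label new RNA. In the slow course, 0.15 µM rapamycin was given for 0, 15, 30, 60 or 90 min, with 2 arrays (a and b) per strain and time, 20 in all. Arrays a carried the sample in Cy3 and arrays b in Cy5, each against a pool of 4tU-labelled RNA from WT-aa cells without rapamycin. In the standard depletion, 7.5 µM was given for 30 min, with 1 array per strain against a BY4742 pool without 4tU. The design text says that the 2 hybridisations came from independent cultures. The titles of slow arrays a and b share a running number, so whether each pair came from separate cultures could not be checked.

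Fre proteins are membrane flavocytochromes that pass electrons from the cytosol to metals on the far side of the membrane. Fre1 and Fre2 reduce ferric and cupric ions at the plasma membrane, which lets the ferroxidase and permease pair Fet3 and Ftr1 take up the iron and Ctr1 the copper. Fre3 and Fre4 act on iron bound to siderophores, the small iron chelators that fungi and bacteria secrete, Fre6 works at the vacuole, and Fre5 and Fre7 are less well understood. In iron shortage the transcription factors Aft1 and Aft2 switch on most of the family with the rest of the iron regulon, while the copper sensor Mac1 drives FRE1 and FRE7.

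The values are log2 ratios of sample to reference, so a negative value is a level below that of the pool. Log2 differences carry the standard error (SE) of a limma fit over 10 groups and the dye, and adjusted p is Benjamini-Hochberg over 6353 features, called below 0.05. Each FRE gene had 1 probe in 2 spots, and each was above background in both channels on all 22 arrays. Brightness differed widely. FRE1 (YLR214W) lay at 37.7 to 116 times the local background on the slow arrays and FRE6 (YLL051C) at 27.5 to 78.1 times. FRE3 (YOR381W) lay at 7.26 to 14.5 times, FRE4 (YNR060W) at 3.53 to 10.4 and FRE2 (YKL220C) at 3.91 to 6.33. FRE5 (YOR384W) and FRE7 (YOL152W) were barely above it, at 1.71 to 2.69 and 1.93 to 2.61 times, where the offset added to every spot draws a ratio towards 0. These multiples describe how well each probe was read and do not rank the genes.

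FRE4 and FRE1 were the members that moved during rapamycin treatment, and they moved by different courses. FRE4 fell in both strains from 15 min on and was lowest in WT-aa at 90 min. FRE1 passed no test in WT-aa up to 60 min and fell at 90 min, whereas in Hsf1-aa it rose at 60 min and passed no test at 90 min. FRE2, FRE3, FRE5, FRE6 and FRE7 passed no test against 0 min in either strain. In bulk RNA, fewer cells making a transcript and less RNA per cell cannot be told apart.

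FRE4 encodes a siderophore-iron reductase. At 0 min its log2 ratio was 0.01 and 0.00 on the WT-aa arrays and -0.24 and -0.25 on the Hsf1-aa arrays. In WT-aa it was -0.55 and -0.61 at 15 min, -0.75 and -0.76 at 30 min, -0.68 and -0.82 at 60 min, and -1.37 and -1.51 at 90 min. Every WT-aa array with rapamycin lay below both WT-aa arrays without it, and the pair at 90 min lay below all the other 18 slow arrays. Against 0 min the fall was -0.58 ± 0.06 at 15 min (SE, n = 2 per group; adjusted p = 8.58e-04, limma), -0.76 at 30 min (adjusted p = 3.87e-05) and -0.75 at 60 min (adjusted p = 2.09e-05). At 90 min it reached -1.44 ± 0.06, 2.71-fold lower (adjusted p = 3.41e-08, limma), which was rank 1 of 6353 features from the most negative change. The WT-aa arrays at 90 min entered the choice of the family, so this p and rank are given as a description. The fall was stepwise: between 30 and 60 min FRE4 changed by 0.00, and between 60 and 90 min by -0.69 (adjusted p = 2.56e-04, limma), steps that were chosen for testing after the values were seen. Over that last step FRE4 and FRE1 were 2 of the 7 members called lower, where 0.063% of all features were. The choice of the family used the arrays at 90 min, so nothing is read from this count.

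In Hsf1-aa the log2 ratio of FRE4 was -0.81 and -0.75 at 15 min, -0.88 and -0.89 at 30 min, -0.54 and -0.53 at 60 min, and -1.03 and -1.09 at 90 min. Again no array with rapamycin reached the level at 0 min, and both values at 60 min lay above those at 15 and 30 min. Against 0 min the change was -0.54 at 15 min (adjusted p = 0.00131), -0.64 at 30 min (adjusted p = 1.04e-04), -0.29 at 60 min (adjusted p = 0.0186) and -0.82 ± 0.06 at 90 min, 1.77-fold lower (adjusted p = 1.29e-06, limma). The rise from 30 to 60 min was 0.35 (adjusted p = 0.0165) and the fall from 60 to 90 min -0.53 (adjusted p = 0.00239), again with steps chosen after the values were seen. Of all features 0.0787% were called higher in the first step and 0.0944% lower in the second, with 1 and 2 of the 7 members. The rise from 30 to 60 min was lost in 9 of 34 other settings, among them leaving out any 1 of the 4 Hsf1-aa arrays of 30 and 60 min (adjusted p = 0.0783 to 0.192), and the fall of FRE4 after 60 min was lost without Hsf1-aa 60 min replicate b (0.0755). The call at 60 min held in 25 of 34 other settings, and it was lost when any 1 of the 4 Hsf1-aa arrays of 0 and 60 min was left out, with adjusted p from 0.0702 to 0.227.

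FRE1 encodes the main ferric and cupric reductase of the plasma membrane. In WT-aa its log2 ratio was 0.04 and -0.20 at 0 min, -0.05 and -0.29 at 15 min, -0.19 and -0.30 at 30 min, -0.08 and -0.37 at 60 min, and -0.75 and -0.99 at 90 min. The pair at 90 min lay below the other 18 slow arrays, and within each dye the values at 15, 30 and 60 min lay below that at 0 min. Against 0 min the changes were -0.09, -0.16 and -0.15 at 15, 30 and 60 min, which passed no test, and -0.79 ± 0.07 at 90 min, 1.73-fold lower (SE, n = 2 per group; adjusted p = 7.95e-05, limma), rank 9 of 6353 from the most negative. Here too the arrays at 90 min entered the choice of the family, so this p and rank are a description. The step from 60 to 90 min alone was -0.65 (adjusted p = 0.0035, limma). That call was lost without WT-aa 60 min replicate a (adjusted p = 0.0904) and without WT-aa 90 min replicate b (0.132).

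In Hsf1-aa FRE1 read -0.15 and -0.40 at 0 min, -0.22 and -0.26 at 15 min, -0.15 and -0.17 at 30 min, 0.27 and 0.02 at 60 min, and -0.25 and -0.35 at 90 min. Both arrays at 60 min lay above the other 8 Hsf1-aa arrays. The rise at 60 min against 0 min was 0.43 ± 0.07, 1.34-fold (adjusted p = 0.00682, limma), and the change at 90 min was -0.02 ± 0.07, with a 95% interval of -0.18 to 0.14 (adjusted p = 0.902). The arrays at 60 and 90 min entered the choice of the family, so these p are descriptions. The step from 60 to 90 min was -0.45 (adjusted p = 0.0449, limma), a call that held in 6 of 34 other settings. The rise at 60 min held in 29 of 34 other settings. It was lost without Hsf1-aa 0 min replicate b (0.39, adjusted p = 0.123) and without Hsf1-aa 60 min replicate a (0.38, adjusted p = 0.118).

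FRE2, the other plasma membrane ferric reductase, stayed between -0.25 and 0.16 on all 20 slow arrays. Its changes against 0 min ran from -0.13 to 0.16, the lower end in WT-aa at 90 min and the upper in WT-aa at 15 min, and the lowest adjusted p of the 8 was 0.271. FRE3, a siderophore reductase like FRE4, read -0.05 and 0.06 in WT-aa at 0 min and -0.30 and -0.26 at 90 min. That pair was the lowest of the 20 slow arrays, yet the change of -0.28 ± 0.11 did not pass the test (adjusted p = 0.527, limma). Its 95% interval was -0.53 to -0.04. That of FRE4 in the same comparison was -1.57 to -1.31, from values that entered the choice of the family, so nothing is read from the gap between them.

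FRE6, the vacuolar reductase, was the member with the widest gap between the dyes. Arrays b read lower than arrays a by 0.37 on average, and in WT-aa at 90 min the values were 0.04 and -0.65. With the dye in the fit the WT-aa change at 90 min was -0.37 ± 0.12 (adjusted p = 0.302, limma). It was -0.54 without WT-aa 90 min replicate a and -0.19 without WT-aa 90 min replicate b. FRE5, a putative reductase found in mitochondria, changed by -0.04 to 0.12 against 0 min, and FRE7, a copper-regulated member, by -0.15 to -0.04. For these dim probes a small change and one drawn towards 0 by the offset cannot be told apart. Over FRE2, FRE3, FRE5, FRE6 and FRE7, 0 of 40 tests against 0 min were called by limma, and 7 had an unadjusted p under 0.05, of which 6 were lower and 1 higher. That is 17.5% of the 40, beside 14.1% of all features over the same 8 comparisons. The comparison of WT-aa at 90 min was picked out after the values were seen, on arrays that entered the choice of the family. In WT-aa at 90 min FRE3, FRE6 and FRE7 were lower at an unadjusted p of 0.027, 0.0081 and 0.0488 (limma), and FRE2 and FRE5 were not under 0.05. Of all features 3.67% were lower at that level there. With median centring FRE7 was at 0.03 instead, and nothing is read from this comparison.

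**Figure D1:**
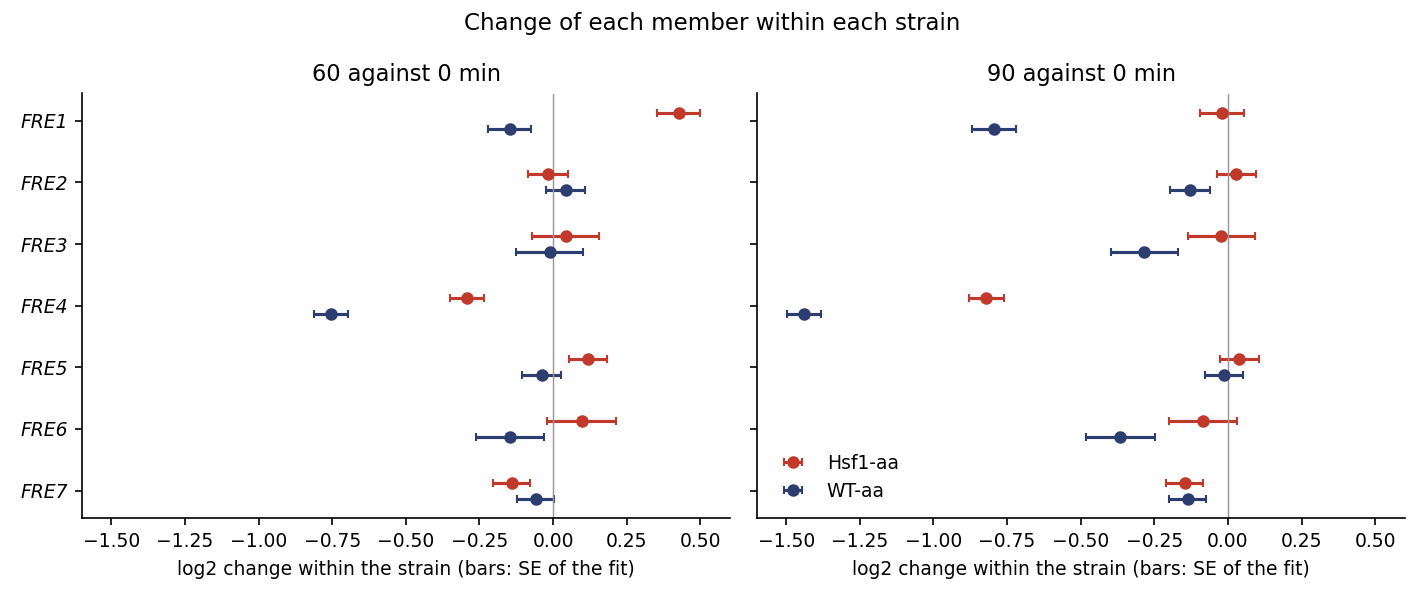
Log2 change within each strain at 60 min (left) and 90 min (right) against 0 min for FRE1 to FRE7, with bars for the SE of the fit. At 90 min WT-aa lies at -1.44 for FRE4 and -0.79 for FRE1, against -0.82 and -0.02 in Hsf1-aa, and the other members lie between -0.37 and 0.04.

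Of the 7 members, 2 were called lower in WT-aa at 90 min, where 0.488% of all features were called lower, and 1 in Hsf1-aa, where 1.94% were. The 2 are FRE1 and FRE4, and the choice of the family used the same arrays at 90 min, so nothing is read from these counts. The median change of the 7 was -0.28 in WT-aa and -0.02 in Hsf1-aa, beside medians of 0.00 and -0.01 over all features. All 7 were below 0 in WT-aa and 5 were in Hsf1-aa. At 60 min 1 member was called lower in WT-aa (0.11% of all features) and in Hsf1-aa 1 was lower (1.57%) and 1 higher (0.409%). At 15 and 30 min FRE4 was the single member called, lower in both strains. The shares of all features called lower were 0.0472% and 0.0157% in WT-aa, and 0.535% at both times in Hsf1-aa.

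The strain difference, Hsf1-aa minus WT-aa, crossed 0 during the course for both genes. These values share their arrays with the changes within strains above, and those at 60 and 90 min led to the choice of the family, so they are given with no p. For FRE1 the difference was -0.20 at 0 min, -0.07 at 15 min, 0.08 at 30 min, 0.37 at 60 min and 0.57 ± 0.07 at 90 min, a 1.49-fold higher level in Hsf1-aa. For FRE4 it was -0.25, -0.20, -0.13, 0.22 and 0.37 ± 0.06 at the same times. At 0, 15 and 30 min 0 of 7 members were called, beside 0.126%, 0.22% and 0.787% of all features. The lowest adjusted p was 0.364, for FRE4 at 30 min (limma). By limma 2, 2 and 1 of the 7 had an unadjusted p under 0.05 (1.67%, 9.71% and 13.7% of all features). At 0 min the 2 were FRE1 and FRE4. The FRE1 arrays at 0 min entered the choice of the family, so nothing is read from that count. At 0 min both Hsf1-aa arrays of FRE4 lay below both WT-aa arrays. At 90 min the Hsf1-aa arrays lay above the WT-aa arrays without overlap for FRE1 and FRE4, and also for FRE2 and FRE3. The share of all features with such a gap was not counted at 0 or 90 min, so nothing is read from these gaps.

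**Figure D2:**
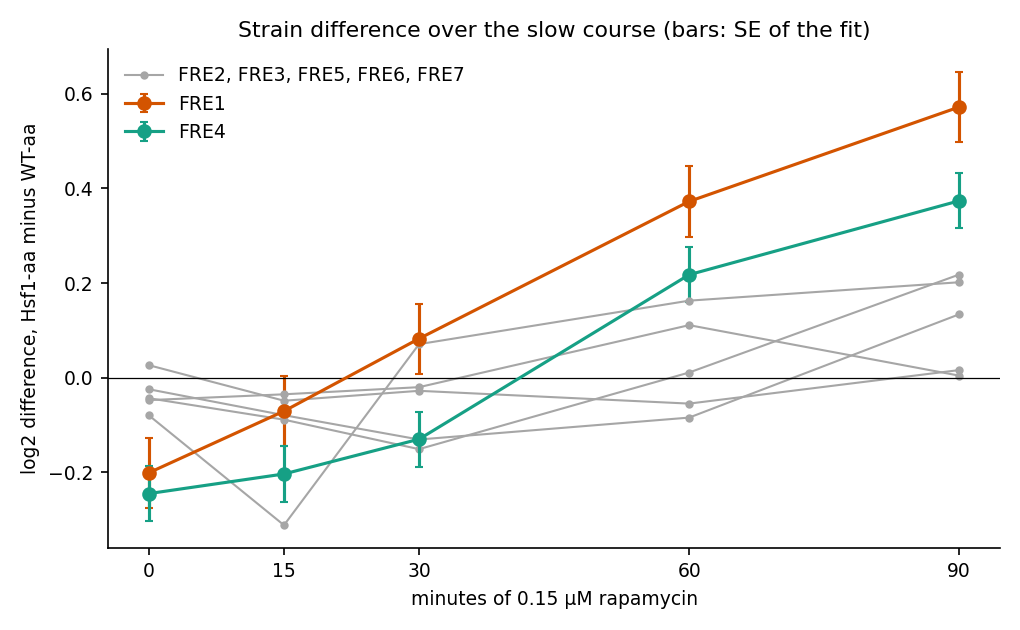
Log2 difference between Hsf1-aa and WT-aa for each member at each time of the slow course, with the SE of the fit for FRE1 and FRE4. FRE1 goes from -0.20 to 0.57 and FRE4 from -0.25 to 0.37, while the other members lie between -0.31 and 0.22.

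The change of the strain difference from 0 to 90 min was 0.77 ± 0.10 for FRE1 and 0.62 ± 0.08 for FRE4, and from 0 to 60 min 0.57 and 0.46. At 90 min FRE3 came to 0.26, FRE6 to 0.28, FRE2 to 0.16, FRE5 to 0.05 and FRE7 to -0.01. FRE1 and FRE4 make up the 2 of 7 members past the threshold at 90 min in the strain difference (0.205% of all features) and in its change from 0 min (0.142%). The choice of the family fixed these counts, and nothing is read from them. For FRE1 the 0.77 was made up of -0.79 in WT-aa and -0.02 in Hsf1-aa. For FRE4 the 0.62 was made up of -1.44 and -0.82.

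The other genes of the iron regulon were read from a list of 21, of which 20 were measured. The siderophore transporter gene SIT1 was not above background on any slow array. In WT-aa at 90 min 6 of the 20 were called lower and 1 higher (0.488% of all features each way), with a median of -0.37 beside 0.00 over all features. TIS11, whose product promotes decay of mRNAs for iron-using proteins, fell by 1.27 ± 0.11 on the log2 scale (adjusted p = 3.96e-05, limma). FIT2, a cell wall mannoprotein that retains siderophores, fell by 1.13, and ARN1, a siderophore transporter, by 1.02. ENB1, an enterobactin transporter, fell by 0.73, FET3, the ferroxidase, by 0.72, and CCC2, the copper pump that loads Fet3, by 0.60. VHT1, the biotin transporter, rose by 0.64.

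In Hsf1-aa at 90 min 0 of the 20 were called lower by limma, with 2 lower at an unadjusted p under 0.05 (9.52% of all features), and 2 were called higher (0.756% of all features). The median was 0.05, beside -0.01 over all features. VHT1 rose here too, by 0.73, and TIS11 rose by 0.48 (adjusted p = 0.0345) after 0.81 at 60 min. FIT2 changed by -0.18, ARN1 by -0.04, ENB1 by 0.10, FET3 by 0.18 and CCC2 by 0.08, which passed no test. The TIS11 call in Hsf1-aa at 90 min was lost in 12 of 34 other settings, where its adjusted p reached 0.419 without Hsf1-aa 0 min replicate a. At 90 min FRE1 passed the test in WT-aa and not in Hsf1-aa, and FRE4 was called lower in both. At 60 min 4 of the 20 were called lower in WT-aa (TIS11, FIT2, ENB1 and CCC2), where 0.11% of all features were. In Hsf1-aa 0 were called lower (1.57% of all features), and 0 also at an unadjusted p under 0.05 (9.7%). Called higher at 60 min were 2 of the 20 in Hsf1-aa (0.409% of all features) and 1 in WT-aa. The number called lower in WT-aa at 90 min ran from 4 to 10 over the other settings, and that in Hsf1-aa was 0 in each. Both strains' changes are taken against their own 0 min arrays, where the list's median strain difference was -0.11.

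**Figure D3:**
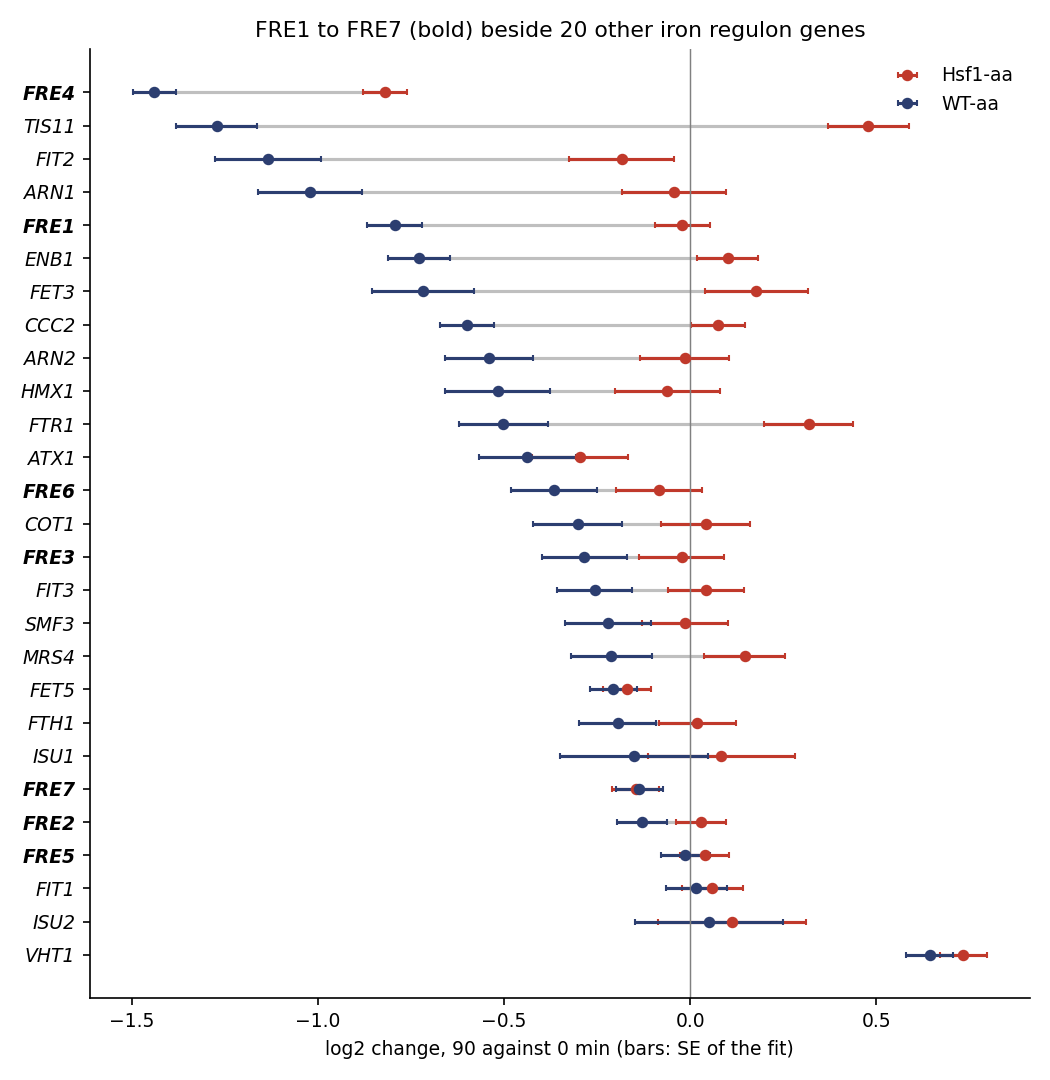
Log2 change at 90 min against 0 min within WT-aa (blue) and Hsf1-aa (red) for FRE1 to FRE7 (bold) and 20 other iron regulon genes, with bars for the SE of the fit and genes ordered by the WT-aa value. FRE4 is at the top at -1.44, TIS11 has the strains on opposite sides of 0 at -1.27 and 0.48, and VHT1 lies to the right in both at 0.64 and 0.73.

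Of 4 copper uptake genes driven by Mac1, 1 was called higher at 90 min in Hsf1-aa, where 0.756% of all features were. This was CTR1, the high-affinity copper transporter, by 0.32 (adjusted p = 0.039, limma). Its value in WT-aa was 0.32 as well (adjusted p = 0.0773). Of 3 measured copper detoxification genes, CUP1-2, a metallothionein, fell by 0.86 at 90 min in Hsf1-aa (adjusted p = 0.0262, limma), where 1.94% of all features were called lower. SOD1, the cytosolic superoxide dismutase, fell by 0.36 at 60 min in Hsf1-aa (adjusted p = 0.0287, limma), where 1.57% were. In WT-aa 0 of the 3 were called at either time. At 90 min all 3 were below 0 in both strains, with medians of -0.26 in WT-aa and -0.30 in Hsf1-aa. The regulator genes AFT1, AFT2, MAC1, YAP5 and CUP2 had 0 of 5 called by limma at 60 and 90 min in either strain, with 2 and 1 at an unadjusted p under 0.05 in Hsf1-aa (19.5% and 18.9% of all features) and 1 and 0 in WT-aa (9.38% and 7.46%). At 90 min AFT1 changed by -0.14 in WT-aa and by 0.14 in Hsf1-aa. FRE8 and AIM14, flavocytochrome relatives outside the 7 members, were not called either. FRE8 changed by 0.70 ± 0.25 in Hsf1-aa (adjusted p = 0.18, limma), on a probe at 2.85 to 12.0 times background. At 90 min the median of FRE8 and AIM14 was 0.42 in Hsf1-aa and 0.11 in WT-aa, above 0 for both genes in each strain.

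In the standard depletion, with 1 array per strain and no test, FRE1 and FRE4 lay lower in Hsf1-aa than in WT-aa. For FRE1 the log2 ratio to the unlabelled pool was -0.86 in WT-aa against -1.20 in Hsf1-aa, which leaves -0.34 between them. For FRE4 it was 0.15 against -0.05, or -0.21 between them, on a probe at 1.92 and 2.08 times background. The middle 90% of all features lay between -0.19 and 0.22, and the other members differed by -0.10 to 0.03. With median centring some of the other members moved as far: FRE2 was at -0.48, FRE3 at -0.62, FRE5 at -0.64 and FRE7 at -0.69, beside -0.16 for FRE1 and -0.85 for FRE4. FRE1 and FRE4 thus did not stand apart from these members under each scaling. FRE6 stayed between -0.11 and 0.02 over 9 other settings. The sign is opposite to that of the slow course at 60 and 90 min, and the slow course at 30 min gave 0.08 for FRE1 and -0.13 for FRE4. On the same 2 arrays the Hsf1 targets HSP82, which encodes the Hsp90 chaperone, and BTN2, which encodes a protein sequestrase, differed by -3.69 and -2.57. The pools differ between the courses, so single log2 ratios were not compared across them.

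The 10 groups of each member were ordered by log2 ratio. For FRE4, 5 of the 9 neighbouring pairs in the order differed by more than 2 SE, and the order ran from WT-aa at 0 min (0.00) and Hsf1-aa at 0 min (-0.24) down to Hsf1-aa at 90 min (-1.06) and WT-aa at 90 min (-1.44). For FRE1, Hsf1-aa at 60 min (0.15) stood above and WT-aa at 90 min (-0.87) below 8 groups whose neighbours did not differ beyond 2 SE. For the other members none of the 9 neighbouring pairs differed by that much. Neighbours in an order lie closest together by construction, so this does not show that groups further apart were alike. FRE6 in WT-aa, for instance, changed by -0.37 ± 0.12 (SE) at 90 against 0 min. The groups of FRE4 spanned 1.44 and those of FRE1 1.02, ranks 42 and 139 of 6353 from the widest, beside a median span of 0.29. Both spans end at WT-aa at 90 min, and that of FRE1 starts at Hsf1-aa at 60 min. These arrays entered the choice of the family, so the spans and ranks of FRE1 and FRE4 are descriptions. FRE5 and FRE7 spanned 0.12 and 0.16.

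Likeness was measured as Pearson's r over the 10 group means, which share the reference pool and the scale of each array, and it is given as a description. Within the family the highest values were 0.81 for FRE4 with FRE7, 0.78 for FRE1 with FRE6 and with FRE3, and 0.77 for FRE2 with FRE3, while FRE1 and FRE4 had 0.69. The genes most like FRE1 were PCA1, a P-type ATPase for cadmium (0.90), MSS11 (0.90) and TIS11 (0.86). Those most like FRE3 were HMX1, a heme oxygenase (0.96), FTH1, a vacuolar iron transporter (0.95), and DIE2 (0.93), and ARN1 was the one most like FRE6 (0.91), ahead of CTS1 (0.89) and REC8 (0.82). FRE4 was most like RCK1 (0.95), HIR3 (0.94) and XPT1 (0.91), whose changes at 90 min ran from -0.25 to -0.12 over both strains. FRE2 was most like SPR1 (0.94), GYP7 (0.93) and VPS64 (0.91), and FRE5 most like CHS5 (0.88), GNP1 (0.84) and KAR3 (0.80). Over the 20 single arrays r was lower for most pairs, at 0.62, 0.49 and 0.06 for these last 3, 0.52 for FRE1 with MSS11 and 0.46 for FRE6 with CTS1. FRE7 was most like HXT2, a glucose transporter (0.97), PAU24 (0.94) and LSB6 (0.94).

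The genes lie on 4 chromosomes, FRE2 on XI, FRE1 and FRE6 on XII, FRE4 on XIV, and FRE3, FRE5 and FRE7 on XV, by the RefSeq gene order. FRE3 and FRE5 flank FIT2 and FIT3 on XV. At 90 min in WT-aa FIT2 fell by 1.13 and FIT3 changed by -0.26 (adjusted p = 0.525), beside -0.28 for FRE3 and -0.01 for FRE5. FRE4 lies near the biotin synthesis genes BIO3 and BIO4, which rose in WT-aa by 1.21 and 1.04 and in Hsf1-aa by 1.35 and 1.22 while FRE4 fell. CPR6, a cyclophilin gene and Hsf1 target that is 2 genes from FRE1, fell by 1.82 in Hsf1-aa at 90 min (adjusted p = 5.09e-07, limma), with CDC123 between them at -0.13. BIO3, BIO4 and CPR6 were picked out after their values were seen.

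The strain labels were checked on other genes. HSF1 read lower in Hsf1-aa at all 5 times, by -2.23 to -1.53, with an SE of 0.23. FPR1 has no feature here. The alpha-cell genes MF(ALPHA)1, MF(ALPHA)2, STE3 and SAG1 lay at 101 to 1252 times background and the 5 a-cell genes at 1.72 to 7.06 times, with STE2 highest. Of the 4 genes marked as mutated in both strains, LEU2 and URA3 lay at 1.24 to 2.30 times background, LYS2 at 2.06 to 4.55 and HIS3 at 5.50 to 14.4 times. Over all features the correlation between the 2 arrays of a group ran from -0.21 to 0.74, with a median of 0.24.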

How the data were processed

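Per the file headers, the deposited scanner files hold the mean signal intensity and the median background intensity of each spot in Cy5 and Cy3, not normalised. The authors' deposited table of log2 ratios served as an alternative. Per the values, its column medians run from -0.01 to 0.02, so its centring is near 0, and it correlated with the scanner ratios at r = 0.63 to 0.97 in the direction Cy5 over Cy3. The sources used here do not give its normalisation, a genome build or image settings.

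Background was corrected by normexp with an offset of 50, ratios were normalised within each array by loess with control spots at weight 0, turned to sample over reference, and averaged over the 2 spots of a gene (R 4.3.3, limma 3.58.1). A feature was kept where its sample signal passed the background median by 2 SD on 2 or more slow arrays, 6353 of 6373. The fit had 10 groups and the dye, which is the same factor as the replicate letter, with 9 residual degrees of freedom. The fit alone was tested on simulated data, for a single comparison within WT-aa, with noise drawn independently for each array. The background correction, normalisation, averaging over spots and filter were not tested in this way. The number of arrays limits the precision, and on the slow arrays the median sample signal was 19.6 to 38.8 times background. Symbols come from the platform annotation updated through RefSeq names, where 58 changed.

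The members and lists (iron regulon, copper uptake, copper detoxification, flavocytochrome relatives, regulators, strain checks, alpha-cell and a-cell genes) were chosen with earlier results of these data known. Genes named beside the members are up to 4 per list with the largest called change, all called iron genes where their count is given, the 3 most alike per member and the strain checks.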

Additional observations from a re-analysis of the deposited data

Results flagged for a closer look

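The strain contrast of FRE1 and FRE4 changed with time under rapamycin: Hsf1-aa minus WT-aa differed between the late times and 0 min by an interaction term of the limma fit. For FRE1 the change was 0.57 from 0 to 60 min and 0.77 from 0 to 90 min, and for FRE4 it was 0.46 and 0.62, on the log2 scale. The 90 min change of FRE1 was among the results known when the family was chosen, so these values describe the arrays and support nothing. Their parts within each strain are in the plots of changes by strain, and no cause was tested. At 30 min of the standard depletion the strain difference had the other sign for both genes, -0.34 and -0.21, with 1 array per strain.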

How the results depend on the processing

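Over 34 other settings, 20 of which left out 1 array each, the count of members called against 0 min at 90 min was 1 in Hsf1-aa and 2 in WT-aa in each, and the falls of FRE4 in both strains and of FRE1 in WT-aa kept their direction and their call. Without an offset the fall of FRE4 in WT-aa was -1.76. The count of members for the change of the strain difference from 0 to 90 min went from 2 to 1 with scaling between arrays and with no replicate block. That for the strain difference at 90 min went from 2 to 1 with those 2 settings, and ran from 1 to 2 when arrays were left out, being 1 without Hsf1-aa 90 min replicate a and without WT-aa 90 min replicate b. With no replicate block FRE4 was the member called in both counts, and with scaling it was FRE1. With no replicate block the rises and falls at 60 min in Hsf1-aa also lost their calls (FRE1 adjusted p = 0.279, FRE4 0.101).

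Values near 0 changed sign. FRE1 in Hsf1-aa at 15 min was -0.191 in the authors' deposited table, -0.0561 with a loess per print block, and -0.0421 to 0.114 when arrays were left out. At 90 min it was 0.0499 with scaling, 0.0302 in the authors' deposited table, 0.0251 on spot 1, 0.0204 with a loess per print block, and -0.0671 to 0.0257 when arrays were left out. In WT-aa at 90 min, median centring gave 0.151 for FRE5 and 0.0262 for FRE7, and leaving out arrays gave -0.0784 to 0.0531 for FRE5. Scaling between arrays ended the calls of FRE4 at 15 and 30 min in Hsf1-aa (adjusted p = 0.303 and 0.0697) and in WT-aa (0.129 and 0.111). It also ended the FRE4 steps from 30 to 60 min (0.482) and 60 to 90 min (0.763) in Hsf1-aa and from 60 to 90 min in WT-aa (0.172), and the FRE1 step from 60 to 90 min in WT-aa (0.101), which was also lost with no replicate block (0.191).

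The standard strain difference of FRE1 was -0.16 with median centring, -0.17 with scaling, -0.22 in the authors' deposited table and -0.26 with a loess per print block. That of FRE4 was -0.44 without an offset, -0.85 with median centring, -0.10 with scaling and -0.29 in the authors' deposited table. The cause of these shifts was not tested.

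Calls over all features in Hsf1-aa at 90 min numbered 171, and 278 in the authors' deposited table, 86 with no replicate block, 321 with array weights and 92 to 326 when arrays were left out. In WT-aa they numbered 62, and 35 with no replicate block, 159 with array weights and 33 to 74 when arrays were left out. For the change of the strain difference they numbered 48, and 28 with no replicate block. Centring on external control RNA moved the median of all features by at most 0.07. The loess per print block was chosen after the data were seen. A slide or scan block was not run, since the files give neither.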
